A study of Homo sapiens with 24 samples.

Results

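Genes of the cornified envelope were followed in PEO1 and PEO4, a pair of established human ovarian adenocarcinoma cell lines. The set was chosen by name and holds 9 of the 28277 genes in the count tables, namely TGM1, TGM3, LORICRIN, IVL, SPRR1A, SPRR1B, SPRR2A, SPRR3 and CNFN. TGM3 and LORICRIN were selected on measured values, their counts in untreated and 6 h PDS-treated PEO4 of the B pair and, for LORICRIN, in untreated PEO1 of that pair, and the other 7 were added for their role. Contrasts with untreated or 6 h PDS-treated PEO4 B are therefore described without a test for the 9 genes. Tests are given only for the A pair, for the PDS response of PEO1 B, and for PEO4 B against PEO1 B at 2 h. The PDS response of PEO1 B shares its untreated libraries with the choice of LORICRIN, for which no test is given there.

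The A pair comprised untreated PEO1 (labelled WT, lacking functional BRCA2 in the study's methods) and untreated PEO4 (labelled WT). In the study the BRCA2 reading frame of PEO4 is restored by a reversion, so the lines of the A pair differ in BRCA2 function. The study describes PEO1 as drug-sensitive and PEO4 as drug-resistant. The B pair comprised PEO1 labelled BRCA2+, in which BRCA2 had been regained, and PEO4 labelled WT. Each line of the B pair was left untreated or incubated with 5 µM pyridostatin (PDS), a small molecule that binds G-quadruplexes, for 2 or 6 h. PolyA RNA-seq was available for 3 replicates of each of the 8 conditions. Both lines are cultures from a single tumour lineage, so a difference between them is a difference between 2 cultures, and the labels do not say whether replicates came from separate cultures. The study calls its replicates of gene expression biological. The p-values below measure the spread between these libraries.

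The cornified envelope is the protein shell that replaces the plasma membrane of a keratinocyte at the end of epidermal differentiation. Transglutaminases join its precursor proteins by isopeptide bonds: involucrin is laid down early as a scaffold, loricrin and the small proline-rich proteins are added later as the bulk and the cross-bridges, and cornifelin is a minor component. Most precursor genes sit together on chromosome 1 in the epidermal differentiation complex. Squamous keratinisation is not a defining feature of serous or adenocarcinoma cells of the ovary, and the level of these genes in the lines is therefore given first.

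Positions in GRCh38 were taken from the RefSeq table. IVL (chr1:152908546-152911886), SPRR1A (chr1:152984081-152985814), SPRR3 (chr1:153001749-153003856), SPRR1B (chr1:153031203-153032900), SPRR2A (chr1:153056120-153057512) and LORICRIN (chr1:153259687-153262124) lie in the complex. TGM1 lies at chr14:24249114-24263177, TGM3 at chr20:2296001-2341079 and CNFN at chr19:42387019-42390297. Of the 50-base stretches of the TGM3 transcript, 96.6% also occur in a GENCODE gene model without a symbol, ENSG00000286022, so the TGM3 counts rest on how reads of that model were assigned. TGM3 also overlaps LOC105372503, which has no row in the tables, and none of the other 8 genes overlaps another RefSeq gene. Of the 50-base stretches of the SPRR2A transcript, 34.4% also occur in transcripts of SPRR2B, SPRR2D, SPRR2E or other genes, and 7.85% of those of SPRR1A and 8.25% of those of SPRR1B occur in the other of that pair, so their counts depend on how shared reads were assigned.

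Promoter sequence is shown for the 5 genes on which the results turn, as the 150 bases before the RefSeq start (GRCh38.p14, plus strand of chr20 for TGM3 and of chr1 for the others). Capitals mark TATAAA within the last 50 bases and TGANTCA, the AP-1 motif, on either strand.
TGM3 (chr20:2295851-2296000): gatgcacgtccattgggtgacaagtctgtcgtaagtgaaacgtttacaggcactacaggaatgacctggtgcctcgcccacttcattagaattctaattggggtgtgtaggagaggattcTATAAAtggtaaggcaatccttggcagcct
LORICRIN (chr1:153259537-153259686): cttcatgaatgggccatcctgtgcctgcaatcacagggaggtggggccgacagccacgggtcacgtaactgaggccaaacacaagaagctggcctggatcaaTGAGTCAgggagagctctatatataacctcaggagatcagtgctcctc
SPRR3 (chr1:153001599-153001748): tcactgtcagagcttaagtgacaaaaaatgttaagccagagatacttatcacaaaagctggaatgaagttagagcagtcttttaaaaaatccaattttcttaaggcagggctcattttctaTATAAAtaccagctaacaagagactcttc
IVL (chr1:152908396-152908545): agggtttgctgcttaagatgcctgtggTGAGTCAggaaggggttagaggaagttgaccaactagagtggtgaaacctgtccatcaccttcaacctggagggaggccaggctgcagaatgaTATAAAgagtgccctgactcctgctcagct
SPRR1B (chr1:153031053-153031202): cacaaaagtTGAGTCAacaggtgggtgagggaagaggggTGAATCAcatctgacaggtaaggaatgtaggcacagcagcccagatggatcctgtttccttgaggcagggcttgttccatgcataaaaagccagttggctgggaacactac

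Over the 250 bases before the start, 8 members had a promoter entry (TGM1 had none). TGANTCA was found in 6 of them, IVL, LORICRIN, SPRR1A, SPRR1B, SPRR2A and SPRR3, against 6.6% of 27305 promoters. In LORICRIN it lay at bases -48 to -42 and in IVL at -123 to -117 from the start. SPRR1B held a pair, at -141 to -135 and at -111 to -105. The motif of SPRR3 lay outside the stretch shown, at -170 to -164. TATAAA was found on the gene strand in the last 50 bases of 5 members, against 2.92% of promoters, and in TGM3 it lay at -30 to -25. GCCNNNGGC, the AP-2 motif, was found in CNFN and in 19.7% of promoters. A G-quadruplex motif, with 4 runs of at least 3 G parted by 1 to 7 bases on either strand, was found in none of the 8 promoters and in 22.6% of all promoters. The GC share of these windows ranged from 40.4% in SPRR3 to 68.4% in CNFN, with a median of 58.0% over all promoters. These matches describe the letters of the window and not binding.

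Total counts per library were 32528913 to 63882077 in the A pair, 18699929 to 22375644 in the untreated B libraries and 33260167 to 43713947 in the PDS-treated ones. The tables were scaled separately, so that CPM values (counts per 1e6 counts, scaled by TMM) are set side by side between them with no test. Of counts between 1 and 49, 66.5 to 71.3% were even in the A table, against 42.6 to 44.7% in the B table, and the counting unit may differ between the tables. In the B table rRNA took 0.217 to 0.474% of counts in untreated libraries and 0.0164 to 0.0369% in treated ones, in both lines, and the part of this difference in the results was not tested. Keratins 7 and 8 and other genes of ovarian carcinoma were present throughout, with 8 or 9 of 10 such markers above 1 CPM on average in each condition. Of 3 endothelial and 4 melanocyte markers at most 1 was above 1 CPM, and of 5 leukocyte markers only CD68 was.

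**Figure D1:**
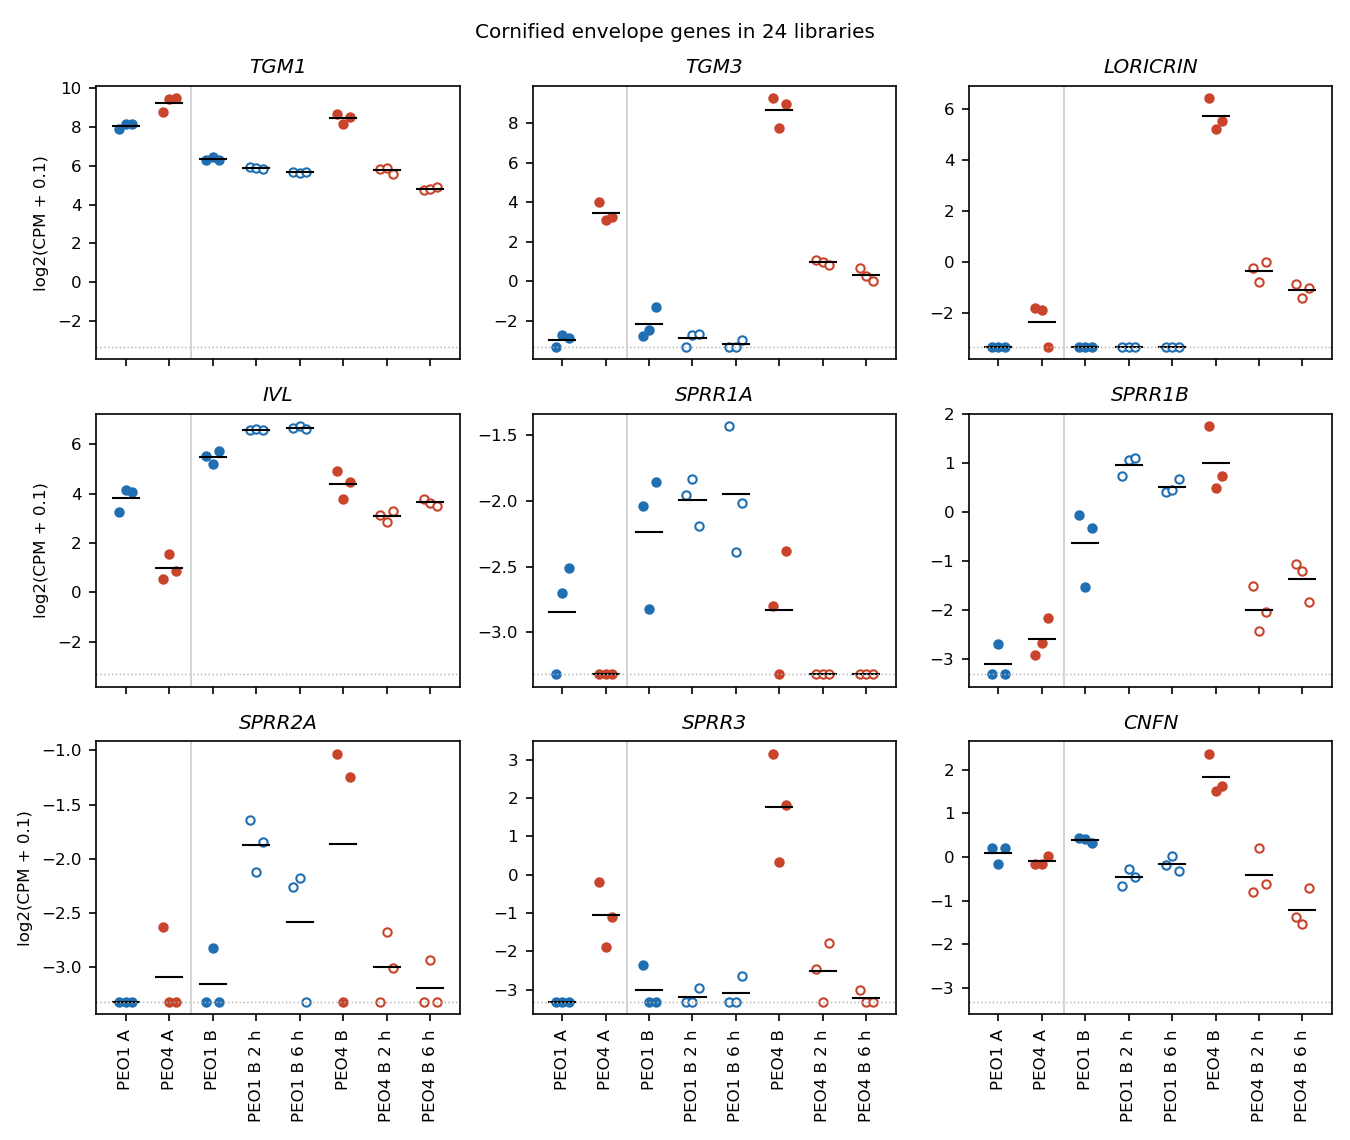
Level of each of the 9 genes in all 24 libraries, as log2(CPM + 0.1), by condition. Each point is a library (blue PEO1, red PEO4, open symbols PDS), the black bar is the mean of 3, the dotted line marks 0 counts and the grey line parts the tables, which were scaled separately. TGM3 and LORICRIN stand highest in untreated PEO4 B, whereas IVL stands highest in PDS-treated PEO1 B.

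TGM3, which makes the late transglutaminase of the epidermis and hair follicle, was a PEO4 transcript in both pairs. In untreated PEO4 B it stood at 607, 213 and 503 CPM in replicates 1 to 3. In PEO1 B it stood at 0.0479, 0.0826 and 0.307 CPM, from 10 counts in all. In PEO4 A it stood at 15.8, 8.31 and 9.31 CPM, and in PEO1 A at 0, 0.0534 and 0.0376 CPM. All PEO4 libraries thus lay above all PEO1 libraries of the same table. The log2 fold change of PEO4 over PEO1 was 8.47 ± 0.48 (SE) in the A pair, where edgeR's quasi-likelihood test gave a Benjamini-Hochberg adjusted p of 4.1e-08. In the untreated B pair it was 11.51 ± 0.58, given without a test, and 11.14 to 12.61 when 1 library was left out.

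PDS-treated PEO4 B held little of the TGM3 transcript. Its level was 2.03, 1.87 and 1.68 CPM at 2 h, and 1.48, 1.10 and 0.898 CPM at 6 h. The treated and untreated libraries did not overlap, nor did those of 2 h and 6 h. The log2 fold change against untreated cells was -7.89 ± 0.40 at 2 h and -8.54 ± 0.43 at 6 h. At 2 h TGM3 was still higher in PEO4 B than in PEO1 B, at 0, 0.0517 and 0.0597 CPM, with a log2 fold change of 5.45 ± 1.32 and an adjusted p of 0.00232 (edgeR). In PEO1 B the counts were few, with 10 over 3 untreated libraries, 4 at 2 h and 1 at 6 h, and edgeR called neither time (adjusted p of 0.602 and 0.427). At 6 h all 3 libraries lay below the untreated ones, the ratio of pooled levels was 15.3-fold lower with a 95% counting interval of 2.18 to 665, and DESeq2 called TGM3 lower (adjusted p = 0.0105). Replicate 3 held 7 of the 10 untreated counts. Leaving out 1 library moved the log2 fold change at 6 h from -3.47 to between -5.225 and -2.37. In a bulk library, fewer cells with a transcript and less of it per cell cannot be told apart, here and for each gene below.

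TGM1, which makes the membrane-bound transglutaminase 1 of keratinocytes, was detected in every library. In PEO4 A it stood at 441, 682 and 703 CPM and in PEO1 A at 239, 284 and 281 CPM. The lines did not overlap, and TGM1 was higher in PEO4 A with a log2 fold change of 1.18 ± 0.17 (edgeR adjusted p = 2.4e-04). In untreated PEO4 B it stood at 403, 287 and 357 CPM and in PEO1 B at 76.9, 86.7 and 78.5 CPM. After 2 h of PDS, PEO4 B held 56.3, 59.1 and 47.4 CPM, and after 6 h 26.3, 27.8 and 30.3 CPM. Each time point of PEO4 B lay below the one before it with no overlap, and the log2 fold change against untreated cells was -2.69 ± 0.10 at 2 h and -3.63 ± 0.11 at 6 h.

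In PEO1 B, TGM1 stood at 60.3, 59.3 and 56.7 CPM at 2 h and at 51.3, 49.5 and 50.3 CPM at 6 h. These levels lay below those of untreated PEO1 B, with log2 fold changes of -0.46 ± 0.10 (adjusted p = 6.7e-04, edgeR) and -0.68 ± 0.10 (adjusted p = 1.1e-05), neither past the size of 1 asked of a call. At 2 h PEO4 B and PEO1 B overlapped, with a log2 difference of -0.12 ± 0.10 (adjusted p = 0.295, edgeR). At 6 h the 3 PEO4 B libraries lay below the 3 PEO1 B libraries, with a log2 fold change of -0.84 ± 0.10. The order of the lines in the untreated B pair was thus turned at 6 h.

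LORICRIN encodes loricrin, the main protein of the mature envelope by mass. It had 0 counts in all 12 PEO1 libraries. In untreated PEO4 B it stood at 85.5, 36.8 and 45.9 CPM, from 1974, 732 and 996 counts. With the PEO1 B group placed at 3 counts, the limit that 0 counts allow, LORICRIN was at least 1294-fold higher in untreated PEO4 B. In PEO4 A it had 12, 6 and 0 counts, which is 0.185, 0.170 and 0 CPM.

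In PDS-treated PEO4 B, LORICRIN stood at 0.750, 0.481 and 0.912 CPM at 2 h. It stood at 0.453, 0.275 and 0.389 CPM at 6 h, on 41 counts in all. Neither time point overlapped with untreated cells, and the log2 fold change was -6.27 ± 0.46 at 2 h and -7.20 ± 0.50 at 6 h. The 82 counts of PEO4 B at 2 h against 0 in PEO1 B were called by edgeR (adjusted p = 0.0165), at least 25.1-fold higher with PEO1 B at 3 counts. That call was lost without replicate 3 of PEO4 B at 2 h, where the adjusted p was 0.0555.

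IVL encodes involucrin, the early scaffold protein, and it ran the other way between the lines. In PEO1 A it stood at 9.50, 17.8 and 16.6 CPM, and in PEO4 A at 1.36, 2.86 and 1.71 CPM. IVL was lower in PEO4 A with a log2 fold change of -2.92 ± 0.32 (edgeR adjusted p = 4.4e-05). In untreated PEO1 B it stood at 45.7, 36.7 and 52.6 CPM and in untreated PEO4 B at 30.1, 13.8 and 22.4 CPM. The lines again did not overlap, with a log2 fold change of PEO4 B over PEO1 B of -1.02 ± 0.21.

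IVL rose in PEO1 B on PDS, to 95.3, 98.3 and 96.0 CPM at 2 h and 102, 107 and 97.5 CPM at 6 h. All 6 treated libraries lay above the 3 untreated ones, and the log2 fold change was 1.10 ± 0.19 at 2 h (edgeR adjusted p = 2.9e-04) and 1.19 ± 0.19 at 6 h (adjusted p = 1.5e-04). The value at 2 h was near the size asked of a call and fell to 0.98 without replicate 2 of untreated PEO1 B. In PEO4 B it stood at 8.72, 7.19 and 9.67 CPM at 2 h, below all untreated libraries, and at 13.8, 12.4 and 11.3 CPM at 6 h, where replicate 1 overlapped with untreated replicate 2. The log2 fold change in PEO4 B was -1.38 ± 0.23 at 2 h and -0.83 ± 0.22 at 6 h. At 2 h IVL was lower in PEO4 B than in PEO1 B by a log2 fold change of -3.50 ± 0.22 (edgeR adjusted p = 3.6e-09).

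Of the small proline-rich genes, whose products cross-bridge the envelope, SPRR1B and SPRR3 passed the filter on low counts in the B table and none did in the A table. SPRR1B stood at 3.29, 1.31 and 1.57 CPM in untreated PEO4 B and at 0.863, 0.248 and 0.702 CPM in untreated PEO1 B. On PDS it rose in PEO1 B to 1.57, 1.99 and 2.06 CPM at 2 h and 1.22, 1.27 and 1.50 CPM at 6 h, with log2 fold changes of 1.66 ± 0.37 (edgeR adjusted p = 5.1e-04) and 1.16 ± 0.38 (adjusted p = 0.0127). Without replicate 2 of untreated PEO1 B the 6 h value was 0.78 and was not called. In PEO4 B the level was 0.250, 0.0849 and 0.144 CPM at 2 h and 0.382, 0.336 and 0.180 CPM at 6 h, all below untreated PEO4 B. The log2 fold change there was -3.67 ± 0.43 at 2 h and -2.76 ± 0.39 at 6 h. Like IVL, SPRR1B was lower in PEO4 B than in PEO1 B at 2 h, by -3.53 ± 0.42 on the log2 scale (edgeR adjusted p = 4.0e-08).

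SPRR3 followed TGM3 and LORICRIN in where it was found, and it passed the filter only through untreated PEO4 B. In untreated PEO4 B it stood at 8.88, 1.16 and 3.46 CPM, a wide spread between replicates. PEO1 B had 2 counts over 3 untreated libraries. PEO4 B had 11 counts over 3 libraries at 2 h and 1 count at 6 h, against 303 untreated, which is 506-fold lower at 6 h with a 95% counting interval of 90.2 to 20060 that leaves out the spread between replicates. Untreated replicate 1 held 205 of the 303 counts, and without it the log2 fold change at 6 h was -7.46 in place of -8.42. With each library left out in turn, that value ranged from -10.11 to -7.46. The single count at 6 h was that of replicate 1. In PEO4 A it had 50, 6 and 12 counts against 0 in PEO1 A, at least 23.6-fold higher with PEO1 A at 3 counts. SPRR1A had at most 10 counts in any library. It had 3 to 10 in each library of PDS-treated PEO1 B and 0 in those of PDS-treated PEO4 B. SPRR2A had at most 9 counts, with 7, 5 and 6 in PEO1 B at 2 h and 0, 1 and 0 in untreated PEO1 B. Both were left out by the filter on low counts. Without that filter, edgeR called both lower in PEO4 B than in PEO1 B at 2 h, SPRR1A on 0 against 16 counts (adjusted p = 6.9e-04) and SPRR2A on 3 against 18 counts (adjusted p = 0.0245), and it called SPRR2A higher in PEO1 B at 2 h than untreated (adjusted p = 0.0349).

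CNFN encodes cornifelin, an envelope component of uncertain function. It did not tell the A lines apart, with 1.05, 0.801 and 1.05 CPM in PEO1 A and 0.801, 0.794 and 0.918 CPM in PEO4 A (log2 fold change -0.22 ± 0.31, edgeR adjusted p = 0.570). In untreated PEO4 B it stood at 5.07, 2.76 and 2.99 CPM, above the 1.25, 1.24 and 1.14 CPM of PEO1 B. PEO4 B held 0.472, 1.05 and 0.552 CPM at 2 h and 0.286, 0.244 and 0.509 CPM at 6 h. Every treated library lay below every untreated one, with log2 fold changes of -2.40 ± 0.28 and -3.39 ± 0.31. In PEO1 B it stood at 0.535, 0.724 and 0.626 CPM at 2 h, a log2 fold change of -0.93 ± 0.33 (edgeR adjusted p = 0.0192) that did not reach the size of 1, and at 0.787, 0.910 and 0.704 CPM at 6 h (-0.59 ± 0.31, adjusted p = 0.116).

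**Figure D2:**
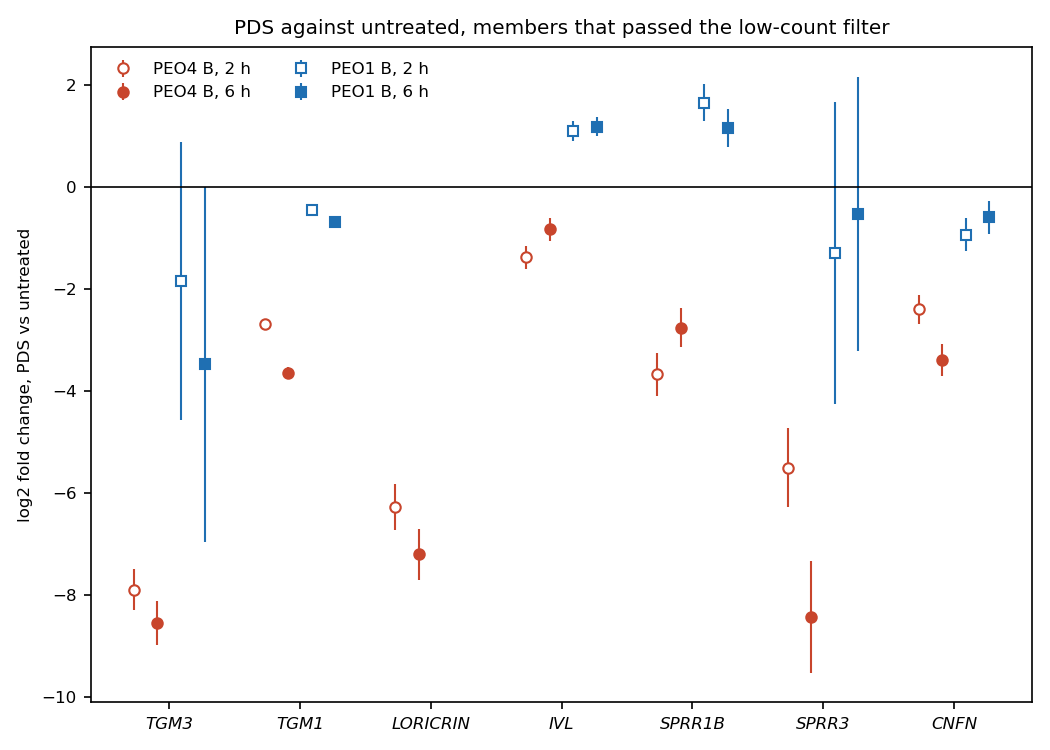
Log2 fold change of PDS-treated against untreated cells of the same line, with its SE, for the 7 genes that passed the filter on low counts in the B table. Red circles are PEO4 B, blue squares PEO1 B, open symbols 2 h and filled symbols 6 h. LORICRIN had 0 counts in PEO1 B and has no blue symbol. IVL and SPRR1B lie above 0 in PEO1 B and below 0 in PEO4 B.

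A call asked for an adjusted p under 0.05 and a log2 fold change past 1 in size. In the A pair 4 of the 9 genes passed the filter. Of these, 2 were called higher in PEO4 (TGM1, TGM3), against 12.6% of all 15882 genes tested, and 1 lower (IVL), against 13.1%. Of the 9 genes, 7 passed in the B table. In PEO1 B 2 of 7 (IVL, SPRR1B) were called higher at 2 h, against 1.18% of 17020 genes, and 0 lower, against 6.39%. The same counts held at 6 h, against 1.29% higher and 6.83% lower. LORICRIN, with 0 counts in PEO1 B, and SPRR3, with at most 2 counts in any group of it, are among the 7 and could not have been called lower there. At an unadjusted p under 0.05 edgeR had 2 of the 7 lower in PEO1 B at 2 h and 1 at 6 h, and DESeq2 called 0 and 1 lower. Between the lines at 2 h, 2 of 7 (TGM3, LORICRIN) were called higher in PEO4 B, against 13.9%, and 2 (IVL, SPRR1B) lower, against 12.6%. These shares count only genes that passed the filter.

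In the contrasts that share libraries with the choice of genes, only positions are given. In PEO4 B 7 of 7 lay below untreated cells without overlap at 2 h and 6 of 7 at 6 h, where 31.3% and 35.9% of all tested genes did so. In the untreated B pair 6 of 7 lay higher in PEO4 B and 1 (IVL) lower, where 33.8% of all tested genes lay higher and 34.7% lower without overlap. Nothing is read from these counts, since TGM3 and LORICRIN were picked there. The replicates of untreated PEO4 B kept an order across the genes. Replicate 2 was the lowest of the 3 in 9 of 9 genes and replicate 1 the highest in 8 of 9.

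Levels between genes were compared per kilobase of the GENCODE canonical transcript. In untreated PEO4 B, TGM3 stood at 167 ± 77.3 CPM per kb (SD, n = 3), TGM1 at 127 ± 21.2 and LORICRIN at 45.0 ± 20.8. TGM3 and TGM1 did not differ beyond their spread. IVL stood at 10.3 ± 3.80, CNFN at 6.77 ± 2.38, SPRR3 at 4.99 ± 4.40 and SPRR1B at 3.32 ± 1.74, and neighbours in this order from IVL on lay within each other's spread. In untreated PEO1 B the order was led by TGM1 at 29.4 ± 1.92 and IVL at 20.9 ± 3.70 CPM per kb.

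The same line differed between the tables, which were scaled separately, and the labels name a library preparation for the A lines only. In the study's methods the A lines, and not the B lines, were grown with added sodium pyruvate. The mean of untreated PEO4 in the B table over that in the A table was 39.6 for TGM3, 474 for LORICRIN (on 18 counts in PEO4 A), 29.4 for SPRR1B (on 8 counts), 11.2 for IVL, 10.3 for SPRR3 and 4.31 for CNFN. For TGM1 it was 0.573. The table, the medium and the state of the cells cannot be told apart here.

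The genes whose pattern was most like that of TGM3 over the 18 B libraries were AATK (Pearson's r of log2 CPM 0.993), NMNAT2, SCARA3, NXN and PITX1 (r from 0.983 to 0.987), out of 12468 candidates. AATK, a kinase gene, stood at 23.0 ± 4.09 CPM in untreated PEO4 B (SD, n = 3), 2.27 ± 0.162 at 6 h and 0.893 ± 0.214 in untreated PEO1 B. For LORICRIN they were TMEM164 (r = 0.987), AATK, TSPAN3, APCDD1 and NXN. APCDD1, which makes a membrane inhibitor of WNT signalling, stood at 225 ± 52.8 CPM in untreated PEO4 B, 5.87 ± 1.04 at 6 h and 0.933 ± 0.251 in untreated PEO1 B. The 18 libraries fall into 6 conditions, and the high values of TGM3 and LORICRIN are those of untreated PEO4 B. TGM1 had r of 0.748 with TGM3 and IVL had -0.555.

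A wider list of 114 genes of epidermal differentiation, without the 9, was described by its counts. Of these, 113 were in the tables, and 67 in the A table and 72 in the B table passed the filter. In PEO4 B at 6 h, 44 of 72 were called lower, against 16.3% of all genes, and 1 higher, against 6.26%. Their median log2 fold change was -1.36, beside -0.03 over all genes. At 2 h 37 were lower, against 11.0%, and 4 higher, against 6.4%, with a median of -1.08. In PEO1 B 9 were called lower at 2 h, against 6.39%, and 1 higher, against 1.18%. At 6 h 8 were lower, against 6.83%, and 1 higher, against 1.29%, and the medians were -0.03 and 0.01. Of the 72 genes, 6 (CERS3, DSG3, KRT14, LCE3E, SPRR2G and TCHHL1) passed the filter only through untreated PEO4 B, where they were high. Without such genes, a restriction added after the data were seen, 32 of 66 were lower in PEO4 B at 2 h, against 9.98%, and 39 of 66 at 6 h, against 15.2%. Among genes with a mean log2 CPM of at least 3, a subset added after the data were seen, 15 of 43 were lower in PEO4 B at 2 h, against 5.24%, and 20 of 43 at 6 h, against 7.63%.

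The interaction term compared the response of PEO4 B with that of PEO1 B. At 2 h 25 of the 72 responded lower in PEO4 B, against 4.92% of all genes, and 5 higher, against 6.1%. At 6 h 33 responded lower, against 9.34%, and 1 (KRT6B) higher, against 5.42%. Without the genes that passed the filter only through untreated PEO4 B, 25 of 66 responded lower at 2 h, against 4.72%, and 31 of 66 at 6 h, against 9.02%. The contrasts of PDS at 2 h and 6 h in each line share the untreated libraries of that line. Untreated PEO4 B also enters the contrast of the untreated B lines. Counts of genes higher in untreated PEO4 B and lower on PDS are therefore not independent, here and below. The list was drawn up with earlier results known.

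Among regulators of keratinocyte fate, TP63, the master transcription factor of stratified epithelia, was nearly absent from treated PEO4 B. It stood at 4.63 to 6.45 CPM in untreated PEO4 B, 0.0849 to 0.194 CPM at 2 h and 0.0299 to 0.167 CPM at 6 h, a log2 fold change of -5.95 ± 0.29 (edgeR adjusted p = 9.8e-15). PEO1 B held 5.75 to 7.27 CPM untreated and 7.19 to 7.88 CPM at 6 h. TP63 was not called between the untreated lines of the B pair (-0.33 ± 0.16, edgeR adjusted p = 0.0680), and it was higher in PEO4 A (4.22 ± 0.43, adjusted p = 5.2e-06). ZNF750, a target of p63 that drives terminal differentiation, stood at 8.06 to 8.84 CPM in untreated PEO4 B and at 0.358 to 0.519 CPM at 6 h (-4.28 ± 0.26, edgeR adjusted p = 4.6e-13). It fell in PEO1 B too, from 0.383 to 0.868 CPM down to 0.136 to 0.182 CPM at 6 h (-2.05 ± 0.43, adjusted p = 3.0e-04). GRHL3, a grainyhead-like factor that activates TGM1, stood at 2.34 to 3.36 CPM in untreated PEO4 B and at 0.0299 to 0.453 CPM at 6 h (-3.32 ± 0.37). KLF4, a factor needed for the skin barrier, went the other way at 2 h, from 13.5 to 25.0 CPM up to 64.3 to 85.2 CPM (2.06 ± 0.16, edgeR adjusted p = 2.2e-08).

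In the group of differentiation transcription factors 9 of 17 were lower in PEO4 B at 6 h, against 16.3% of all genes. An equal number of the group, 4 of 17, was lower in PEO1 B at 2 h, against 6.39%, and at 6 h, against 6.83%, among them CEBPB, EHF and ZNF750. In the group of basal genes and keratins 8 of 11 were lower in PEO4 B at 6 h, against 16.3%, and 1 (KRT6B, a stress keratin) higher, against 6.26%. KRT14, among the lower genes, passed the filter only through untreated PEO4 B, and nothing is read from its call. KRT13, a keratin of mucosal squamous epithelium, fell from 15.1 to 70.1 CPM down to 0.946 to 1.43 CPM (-5.16 ± 0.58, edgeR adjusted p = 3.2e-06), and COL17A1, a hemidesmosome collagen, changed by -3.88 ± 0.19 (adjusted p = 7.3e-15). In PEO1 B 0 of the 11 were called at either time, with 3 at an unadjusted p under 0.05 at 2 h and 4 at 6 h (edgeR), and DESeq2 called 0 and 0. KRT5, the basal keratin, was mainly a PEO1 transcript. It stood at 1195 to 1476 CPM in untreated PEO1 B and 101 to 243 CPM in untreated PEO4 B.

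Proteases and their inhibitors control the shedding of the cornified layer. In PEO4 B 12 of 16 were lower at 6 h, against 16.3%, and 11 at 2 h, against 11.0%. At 2 h 1 of the 16 (KLK6) was higher in PEO4 B, against 6.4% (1.31 ± 0.06, edgeR adjusted p = 1.3e-15). PI3, the protease inhibitor elafin, which is itself an envelope substrate, stood at 125 to 411 CPM untreated and at 3.97 to 5.25 CPM at 6 h (-5.78 ± 0.40, edgeR adjusted p = 2.1e-08). SPINK6, an inhibitor of kallikreins, stood at 12.6 to 29.9 CPM untreated and 1.02 to 1.65 CPM at 6 h (-4.22 ± 0.29), and CSTA, the envelope protein cystatin A, fell by 4.92 ± 0.42 on that scale. In PEO1 B 3 of the 16 were lower at 2 h, against 6.39%, and 3 at 6 h, against 6.83%. In the untreated B pair 11 of 16 were higher in PEO4 B, against 12.2%, and 1 (KLK5) lower, against 12.6%.

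The remaining groups were smaller. Of the other small proline-rich and transglutaminase genes, TGM2 and SPRR2G were tested in the B table, and TGM2 and TGM5 in the A table. In the A pair TGM5 was higher in PEO4 (3.785 ± 0.415, edgeR adjusted p = 5.8e-06) and TGM2 lower (-4.109 ± 0.139, adjusted p = 4.7e-10). TGM2 was also lower in untreated PEO4 B than in PEO1 B (-1.47 ± 0.15, adjusted p = 4.5e-07). TGM2 was called lower in PEO4 B at 6 h. So was SPRR2G, from which nothing is read since it passed the filter only through untreated PEO4 B. Of the S100 fused-type genes 3 of 4 were called lower in PEO4 B at 6 h, against 16.3% of all genes, namely FLG, TCHH and TCHHL1. TCHHL1 likewise passed only through that group, and nothing is read from its call. FLG, which encodes filaggrin, the matrix protein of cornified cells, stood at 36.6 to 133 CPM in untreated PEO4 B and 2.56 to 3.67 CPM at 6 h (-4.97 ± 0.45, edgeR adjusted p = 3.8e-07). It fell in PEO1 B as well, from 17.9 to 31.3 CPM to 6.70 to 8.13 CPM (-1.65 ± 0.41, adjusted p = 0.00452). TCHH averaged only 0.493 CPM in untreated PEO4 B and 0.245 CPM at 6 h. In PEO1 B TCHH went the other way, from an average of 2.88 CPM to 7.58 CPM at 6 h, and was called higher (1.40). Between untreated lines FLG was lower in PEO4 A (-4.66 ± 0.69, adjusted p = 0.00365) and higher in PEO4 B (2.03 ± 0.37, adjusted p = 3.0e-04). RPTN, which encodes the fused-type protein repetin, stood at 8.49 to 9.29 CPM in PEO1 A with 0 counts in PEO4 A. Of the late cornified envelope genes, only LCE3D and LCE3E were tested. LCE3D was called lower in PEO4 B at 6 h. LCE3E was too, but nothing is read from it since it passed the filter only through untreated PEO4 B. In all, 9 of 22 genes of that group had 0 counts in all 24 libraries. In the plakins and desmosome group 5 of 13 were lower in PEO4 B at 6 h, against 16.3%, among them PPL, the scaffold protein periplakin, from 310 to 480 CPM down to 93.4 to 95.9 CPM (-2.14 ± 0.11, adjusted p = 8.3e-12). In the lipid envelope group 3 of 7 were lower, against 16.3% of all genes, namely ABCA12, SDR9C7 and CERS3. CERS3 was below the level asked of a named gene and was added after its value was seen. It passed the filter only through untreated PEO4 B, and nothing is read from its call.

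**Figure D3:**
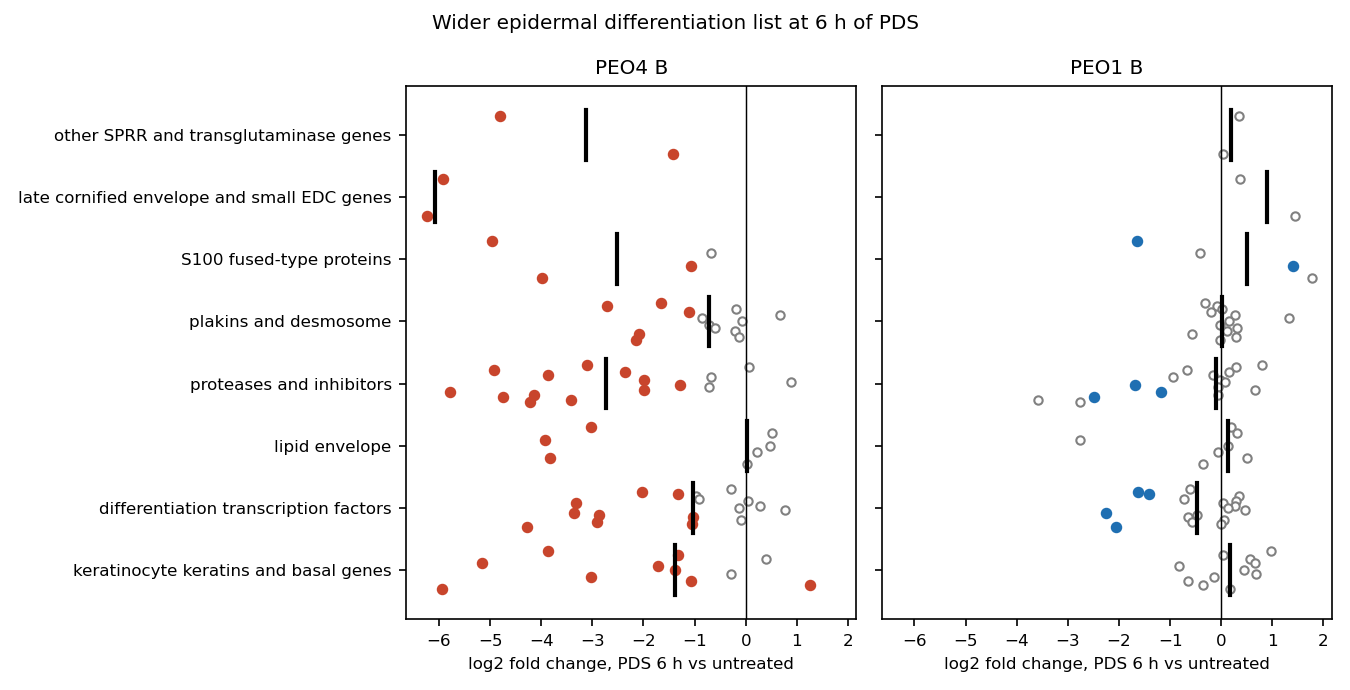
Log2 fold change of PDS at 6 h against untreated cells for the 72 tested genes of the wider list, by role, in PEO4 B (left) and PEO1 B (right). Filled points are called, open points are not, and the black bar is the median of the group. Called genes lie to the left of 0 in most groups of PEO4 B, with KRT6B to the right, and are few in PEO1 B.

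Between untreated lines the list gave unlike counts in the 2 pairs. In the B pair 32 of 72 were called higher in PEO4 B, against 12.2%, and 9 lower, against 12.6%, with a median of 0.71. Without the genes that passed the filter only through untreated PEO4 B, 27 of 66 were higher, against 11.4%, and the median was 0.44. In the A pair 16 of 67 were higher in PEO4 A, against 12.6%, and 20 lower, against 13.1%, with a median of -0.05. The tables were fitted separately and the difference between the pairs was not tested.

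By position, the complex was taken as chr1:151982915-153632039, from S100A10 to S100A1. The reference places 93 genes there, of which 65 were in the tables. Apart from the members, 20 were tested in the B table. In PEO4 B at 6 h 13 of these were called lower, against 16.3% of all genes, and 2 (S100A14, S100A16) higher, against 6.26%, with a median log2 fold change of -1.91. At 2 h 10 were lower, against 11.0%, and 2 higher, against 6.4%. Of the 20, 11 were S100A genes, of which 5 were lower at 6 h, against 16.3%, and 2 higher, against 6.26%. FLG, TCHH, TCHHL1, LCE3D, LCE3E and SPRR2G, lower at 6 h, are also in the wider list and were counted there. LOC101928034 overlaps S100A3, and both were lower at 6 h (-3.46 and -3.75). Of the 20, TCHHL1, LCE3E and SPRR2G passed the filter only through untreated PEO4 B. Without such genes 10 of 17 were lower at 6 h, against 15.2%, and 7 of 17 at 2 h, against 9.98%. In PEO1 B 1 (FLG) was lower at 6 h, against 6.83%, and 3 higher, against 1.29%, with a median of 0.51. CRCT1, a cysteine-rich gene between LCE5A and LCE3E that was singled out after its values were seen, averaged 33.4 CPM in untreated PEO4 B and 0.243 CPM at 6 h. At 2 h 2 were lower in PEO1 B, against 6.39%, and 1 higher, against 1.18%. In the A pair 3 of 16 were higher in PEO4 A, against 12.6%, and 7 lower, against 13.1%. In the untreated B pair 9 of 20 were higher in PEO4 B, against 12.2%, and 5 lower, against 12.6%, and 6 of 17 were higher, against 11.4%, without the genes that passed the filter only through that group.

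**Figure D4:**
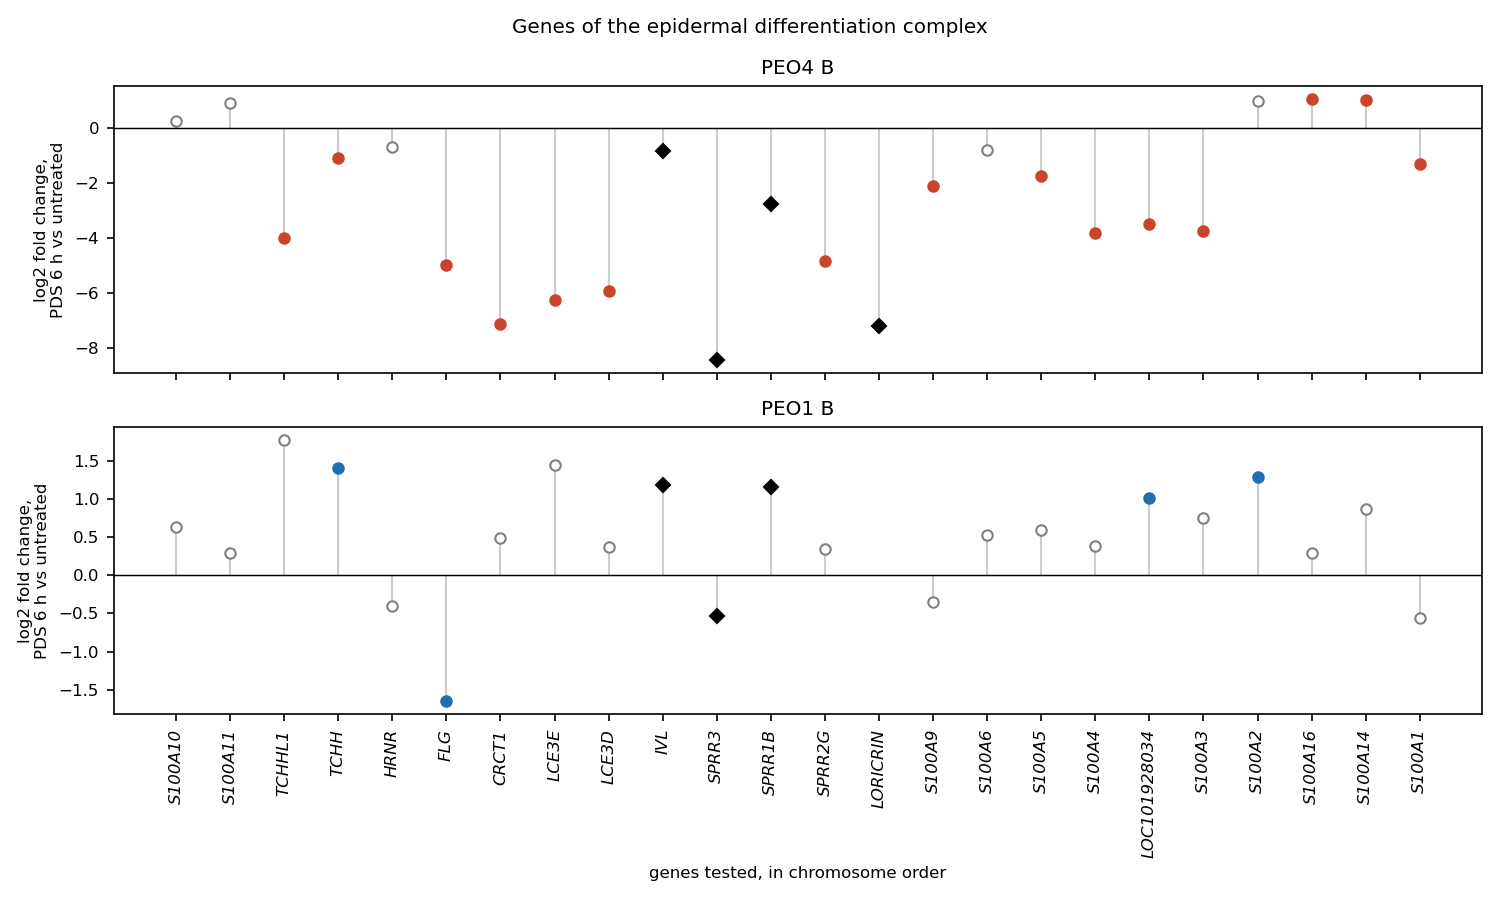
Log2 fold change of PDS at 6 h against untreated cells for the 24 tested genes of the epidermal differentiation complex, in chromosome order, in PEO4 B (top) and PEO1 B (bottom). Black diamonds are members, filled circles other genes that were called and open circles genes that were not. The vertical scales differ between the panels, and LORICRIN, with 0 counts in PEO1 B, is not drawn there. In PEO4 B the lowest values lie between TCHHL1 and S100A3.

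Markers of other cell types were summed beside these results. The 7 keratinocyte markers, led by KRT5 or KRT10, summed to 148 to 282 CPM in untreated PEO4 B, 50.6 to 59.3 CPM at 2 h and up to 68.5 CPM at 6 h, and to 1247 to 1532 CPM in untreated PEO1 B. The 6 fibroblast markers, led by COL1A1, summed to 36.3 to 38.6 CPM in untreated PEO4 B and 3.70 to 4.91 CPM at 6 h. In PEO1 B they summed to 5.14 to 7.19 CPM untreated and 2.73 to 3.66 CPM at 6 h. The ovarian carcinoma markers summed to 5759 to 7741 CPM in untreated PEO4 B and 6711 to 6882 CPM at 6 h, a sum led by KRT7, KRT8 and KRT18. Single markers of that list moved: in PEO4 B MUC16 averaged 544.8 CPM untreated and 51.6 CPM at 6 h, FOLR1 33.7 and 1.16 CPM, and MECOM 0.159 and 10.2 CPM. The part of any other cell type in the results was not tested.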

How the data were processed

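RNA-seq libraries of PEO1 and PEO4 cells were analysed from the deposited tables, which hold whole-number counts per gene symbol made by the authors without normalization. The submitters' processing notes name FastQC, fastp, STAR, featureCounts and hg38. The annotation, the strand setting and whether reads or fragments were counted are not given in the sources used here. All columns of per-sample values were used. In the tables, 2 and 1 lines had no readable counts and were left out.

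The counts were fitted with edgeR 4.0.16 in R 4.3.3, using filterByExpr (minimum count 10, minimum total 15), TMM scaling and a robust quasi-likelihood fit with a mean per condition over all libraries of a table. This left 15882 genes (6 libraries, 4 residual degrees of freedom) and 17020 genes (18 libraries, 12 residual degrees of freedom), and p-values were adjusted by Benjamini-Hochberg over all of them. Calls needed a log2 fold change past 1 in either direction together with an adjusted p under 0.05. The fit was tested on simulated data. DESeq2 1.42.0, other scalings, no filter, a replicate block and leaving out each library were the alternatives. A group at 0 was placed at 3 counts over the group, and counting intervals (95%, exact binomial) cover counting error only. Library totals, given with the results, set the precision.

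The members and lists were chosen with earlier results of these data known. Of the wider list, up to 3 called genes per role, contrast and direction with the largest change were named, passing over genes with a mean log2 CPM under 0. Exceptions below that level are genes that passed the filter only through untreated PEO4 B, which are named as such. For likeness, the 5 genes of highest r with a mean log2 CPM of at least 1 were named (prior count 2), passing over LOC symbols. Transcripts and positions came from GENCODE and RefSeq.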

Additional observations from a re-analysis of the deposited data

Results flagged for a closer look

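IVL and SPRR1B moved in opposite directions in the lines of the B pair on PDS, in every library at 2 h, and this was not tested as a difference because PEO4 B libraries took part in the choice of genes. At 2 h the log2 fold change of IVL was 1.10 in PEO1 B and -1.38 in PEO4 B. For SPRR1B it was 1.66 and -3.67 at 2 h, and 1.16 and -2.76 at 6 h.

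In the wider list the responses of the lines differed by the interaction term of edgeR at an adjusted p under 0.05 and a size over 1. At 2 h 25 genes responded lower in PEO4 B than in PEO1 B and 5 higher, and at 6 h 33 lower and 1 higher, of 72 tested. Over all genes 4.92% were lower and 6.1% higher at 2 h, and 9.34% and 5.42% at 6 h. Of the 72, 6 passed the filter only through untreated PEO4 B. Without such genes 25 of 66 responded lower at 2 h, against 4.72%, and 5 higher, against 6.22%. At 6 h 31 of 66 responded lower, against 9.02%, and 1 higher, against 5.53%.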

How the results depend on the processing

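Of 660 alternative values of the members' log2 fold changes, 639 kept their direction and side of the threshold, 4 lost a call, 4 gained one, 13 moved by more than the spread and 0 called values changed sign. These values include the contrasts that are described without a test for the members. The count of members called higher in the A pair rose from 2 to 4 without the filter and with DESeq2. Leaving out 1 library gave 2 to 3 higher there. In PEO1 B at 2 h, library totals in place of TMM gave 1 higher and 1 lower (IVL at 0.96, CNFN at -1.08). Leaving out 1 library gave 2 to 3 higher and 0 to 1 lower, the latter CNFN at -1.04 without replicate 2 at 2 h. IVL was at 0.98, and not called, without replicate 2 of untreated PEO1 B. The higher counts therefore include a member that the filter left out of the main fit. In PEO1 B at 6 h, leaving out 1 library gave 1 to 2 higher and DESeq2 1 lower (TGM3 at -3.84, from 11 counts). Between the lines at 2 h, leaving out 1 library gave 1 to 2 higher and 2 to 3 lower. No filter gave 4 lower, with SPRR1A and SPRR2A added. For the wider list, leaving out 1 library gave 0 to 2 higher in PEO4 B at 6 h, 1 to 2 higher in PEO1 B at 2 h and 1 to 3 higher at 6 h, where no filter and DESeq2 each gave 2. KRT6B lost its call in PEO4 B at 6 h without replicate 3 of untreated PEO4 B. In the PDS contrasts library totals placed the median over all tested genes between -0.13 and -0.19 on the log2 scale, from -0.03 to 0 with TMM, to which the report's changes are relative. Leaving out 1 library, the log2 fold change of TGM3 in PEO4 B at 6 h ranged from -8.87 to -8.24 and that of LORICRIN from -7.42 to -6.75. The cause of these shifts was not tested.

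Replicate numbers did not pair the libraries: the correlation of same-numbered libraries ranged from -0.0429 to 0.0228 in the A table and from -0.158 to 0.134 in the B table. With the replicate block 3 members were higher between the lines at 2 h, the added one being SPRR3, from which nothing is read since it passed the filter only through untreated PEO4 B, and the wider list of the A pair had 17 higher in place of 16. No other count of calls changed. SPRR1A and SPRR2A, with at most 10 counts in a library, were left out of the main fit by the filter. They entered alternative fits, among them edgeR without the filter and DESeq2.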
